A study of Homo sapiens with 8 samples.

Results

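The genes described here encode the proteins that take cholesterol out of the lysosome and the carriers that move cholesterol and oxysterols between membranes. They are NPC1, NPC2, CYP27A1, STARD3, OSBP, OSBPL1A, OSBPL8, OSBPL11, GRAMD1A and GRAMD1B, chosen by symbol from a table of 62700 genes, and all 10 were present. All 10 also passed the filter on low counts that left 17535 genes for testing. The cells were THP-1, a human monocytic leukaemia line, made into macrophages by 72 h in 50 ng/mL PMA, a phorbol ester, and loaded for 48 h with acetylated low-density lipoprotein (AcLDL), which turns macrophages into cholesteryl ester-rich foam cells (FCs). In the auranofin group (FCs+AF, 4 libraries) the medium held 0.5 µM auranofin, a gold compound that inhibits thioredoxin reductase. In the vehicle group (FCs+DMSO, 4 libraries) it held DMSO without the drug. The limit recorded for the vehicle, less than 0.1% by volume, is the same for both groups. The sample protocol starts drug or vehicle 24 h before the lipid and keeps it on to the end, while the series' design text has the drug follow the lipid load. PMA, AcLDL and the cell line were common to both groups, no library of unloaded macrophages was analysed here, and the comparison asks how expression in foam cells differs with auranofin.

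Cholesteryl esters that macrophages take up are hydrolysed in the lysosome, where the soluble protein NPC2 hands free cholesterol to the membrane protein NPC1 for export. From there cholesterol reaches the endoplasmic reticulum (ER) and other membranes largely through carriers that work where membranes touch: START domain proteins, the oxysterol-binding protein family and the GRAMD1 (Aster) proteins. CYP27A1, a mitochondrial enzyme, hydroxylates the sterol side chain and so makes an oxysterol that activates the nuclear receptor LXR, which controls cholesterol export genes.

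Libraries held 24522949 to 32325981 counts in the AF group and 19336073 to 27278947 in the DMSO group, and the 10 genes had 753 to 17540 counts in any library, so that counting error alone was at most 3.64% of a value. AF replicate 1 stood apart: 59.4% of its counts fell on protein-coding genes, whereas AF replicates 2 to 4 had 91.3% to 91.6% and the DMSO libraries 91.4% to 91.7% there. Its TMM factor, the scaling of a library, was 0.679 and those of the rest 1.04 to 1.08. Values below are CPM, counts relative to a library size scaled with these factors. Of 10 macrophage markers, 7 were at 101 CPM or more in every library, while CD68, FCGR3A and MRC1 did not exceed 9.82 CPM. Among the 10, CD14 and ITGAM were called higher in AF and LYZ, MSR1, MRC1 and FCGR3A lower. LYZ averaged 745 CPM in AF and 1430 CPM in DMSO, and MSR1 129 CPM in AF and 213 CPM in DMSO. The summed level of the 10 was 2840 to 3180 CPM in AF and 3500 to 4080 CPM in DMSO, and without LYZ 2100 to 2400 CPM in AF and 2170 to 2510 CPM in DMSO; the part of these markers in the results was not tested. The 3 defining markers each of T cells, B cells, erythroid, epithelial and fibroblast or smooth muscle cells stayed under 1 CPM in every library. Of the endothelial markers CDH5 reached at most 0.0342 CPM, VWF 5.23 CPM, and PECAM1, which monocytes also express, 323 CPM. Nothing in the labels says that libraries came from separate cultures, and library names share stems. DMSO replicates 1 and 2 share both stem and suffix, as do DMSO replicates 3 and 4. In AF, libraries with the same stem have different suffixes, and what stems and suffixes mark is not given. The p-values therefore reflect only how these libraries vary, and that variation may be technical.

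Of the 10 genes, NPC1 and CYP27A1 were higher in auranofin-treated foam cells, and no member was lower (edgeR's quasi-likelihood test, adjusted p under 0.05 over all genes tested). Among all 17535 genes, 7.62% were called higher and 7.81% lower, 15.4% in either direction. Nothing particular to these 10 genes was read from the count of 2. At an unadjusted p under 0.05 there were 4 members higher and 0 lower, where 14.9% of all genes were higher and 14.8% lower. DESeq2, and limma voom with a correlation within name stems, also called 2 members higher and 0 lower. The member median log2 fold change, AF over DMSO, was 0.125, against 0.005 over all genes tested, and 8 of the 10 were positive, but only 4 when libraries were scaled by their totals alone. That scaling, in which the low protein-coding share of AF replicate 1 is not corrected, moved the median of all genes to -0.145 and left 183 genes called higher and 700 lower, in place of 1336 and 1369. Relative to that median the signs of all 10 members were those of the TMM scaling. Leaving out 1 library lowered the counts over all genes most for AF replicate 3 (827 higher, 833 lower), DMSO replicate 2 (768 and 848) and DMSO replicate 3 (779 and 869). In bulk RNA, fewer cells expressing a gene and less RNA per cell cannot be told apart.

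**Figure D1:**
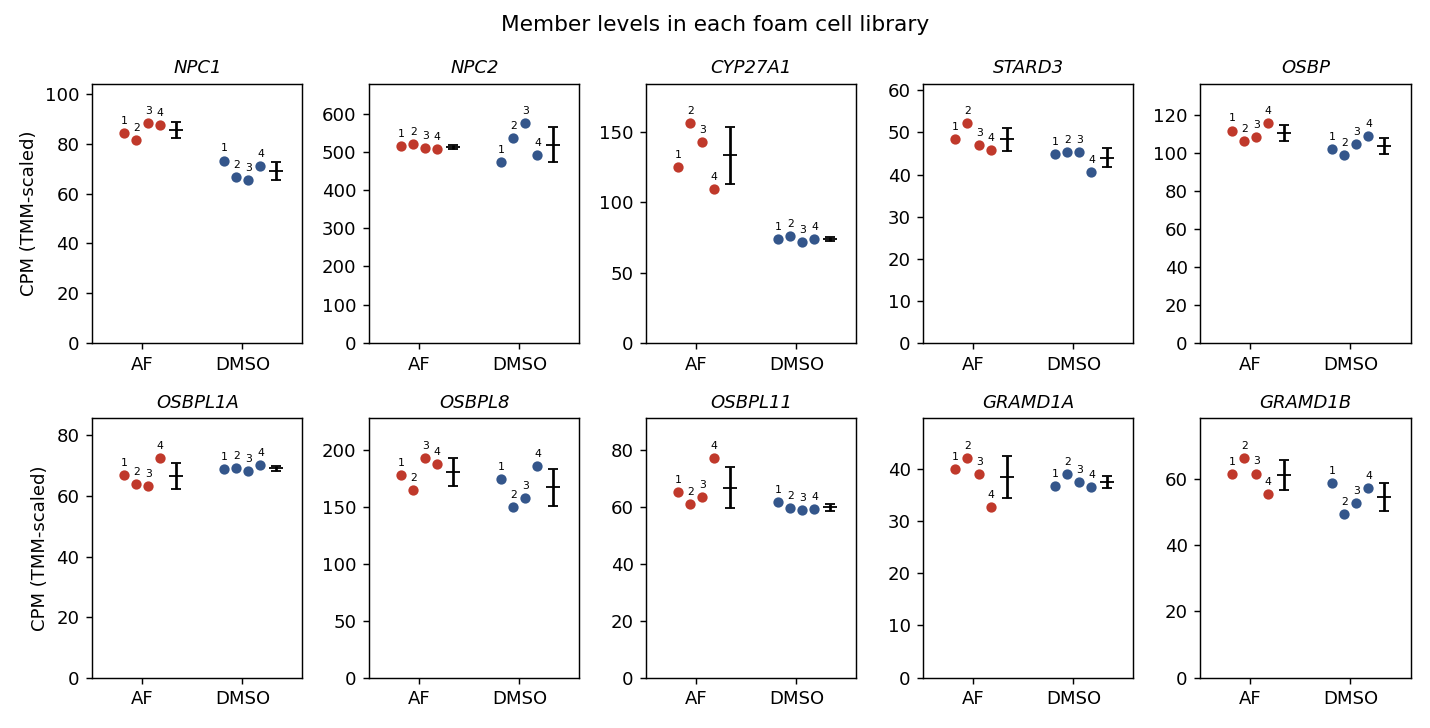
Level of each of the 10 genes in CPM (vertical axis, from 0) in the 4 AF and 4 DMSO libraries; small digits are replicate numbers and black bars the mean ± SD. NPC1, CYP27A1 and STARD3 have all 4 AF points above all 4 DMSO points, and the other 7 genes overlap.

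The lysosomal exporters differed from each other. NPC1, the membrane transporter of the lysosome's limiting membrane, had 84.5, 81.6, 88.4 and 87.9 CPM in AF replicates 1 to 4 and 73.4, 66.7, 65.6 and 71.1 CPM in DMSO replicates 1 to 4. The groups did not overlap, and the lowest AF library was above the highest DMSO library. NPC1 averaged 85.6 ± 3.17 CPM in AF and 69.2 ± 3.68 CPM in DMSO (SD, n = 4 each), a log2 fold change of 0.31 ± 0.06 (SE), or 1.24-fold with a 95% interval of 1.14 to 1.34 (adjusted p = 0.00206, edgeR). With library totals alone its log2 fold change was 0.16 (adjusted p = 0.714), which ended the call; relative to the shifted median it was 0.30. NPC1 lies on chromosome 18, at 23506184 to 23586898 on the minus strand of GRCh38, and 5.98% of its exon bases overlap the gene RMC1 on the other strand.

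NPC2, the soluble cholesterol-binding partner in the lysosome lumen, had 514, 520, 510 and 507 CPM in AF and 473, 536, 575 and 491 CPM in DMSO. The 4 AF values lay within the DMSO range, and were closer together than the DMSO values: the coefficient of variation was 1.08% in AF, near a counting error of at most 1.02%, and 8.87% in DMSO. Its log2 fold change of -0.02 ± 0.07 did not pass (adjusted p = 0.912, edgeR), and its 95% interval ran from 0.889-fold to 1.1-fold. The sign turned without DMSO replicate 2 (0.00011) or DMSO replicate 3 (0.04). The change of NPC1 relative to NPC2 was tested within libraries, where scaling does not enter. The log2 ratio of NPC1 to NPC2 was -2.58 ± 0.07 in AF and -2.90 ± 0.20 in DMSO, a difference of 0.32 (exact permutation test, two-sided, p = 0.0286, the smallest that 70 splits of 4 against 4 allow; adjusted p = 0.0476 over 5 ratios). The groups did not overlap, but the lowest AF ratio (-2.671, replicate 2) lay beside the highest DMSO ratio (-2.687, replicate 1). NPC2 lies on chromosome 14, at 74476192 to 74494177 on the minus strand.

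CYP27A1, the sterol side chain hydroxylase, showed the largest change of the 10 genes. It had 125, 156, 143 and 109 CPM in AF replicates 1 to 4 and 73.5, 75.7, 71.9 and 74.0 CPM in DMSO replicates 1 to 4. Every AF library stood above every DMSO library, the AF libraries were spread widely, with replicates 2 and 3 above replicates 1 and 4, and the DMSO libraries lay close together. The mean was 133 ± 20.5 CPM in AF and 73.8 ± 1.59 CPM in DMSO, with coefficients of variation of 15.4% and 2.16%. The log2 fold change was 0.85 ± 0.09, or 1.81-fold with an interval of 1.59 to 2.06 (adjusted p = 1.9e-05, edgeR), and the gene ranked 62 of 17535 by p. It was called under all 18 alternatives, with a log2 fold change of 0.77 to 0.94 when 1 library was left out and of 0.71 with library totals alone. The log2 ratio of CYP27A1 to NPC1 was 0.63 ± 0.26 in AF and 0.09 ± 0.08 in DMSO, a difference of 0.53 (exact permutation p = 0.0286, adjusted p = 0.0476), so the gain of CYP27A1 was larger than that of NPC1. CYP27A1 lies on chromosome 2, at 218781749 to 218815293 on the plus strand, with no exon overlap with another gene.

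**Figure D2:**
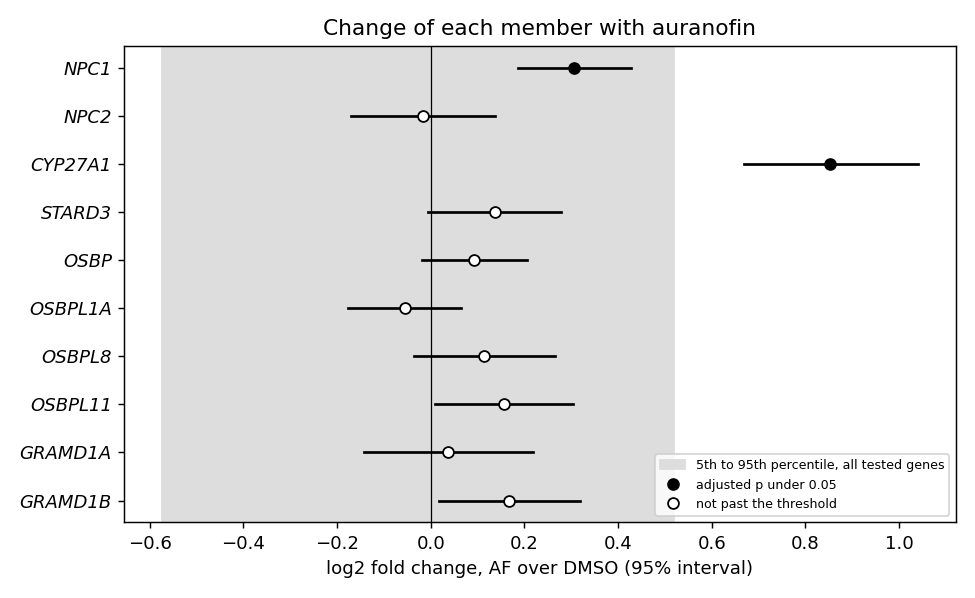
log2 fold change of each gene, AF over DMSO, with its 95% interval (horizontal axis); filled points passed an adjusted p of 0.05, and the grey band holds the 5th to 95th percentile of all tested genes, -0.573 to 0.519. CYP27A1 lies beyond the band, NPC1 is called inside it, and the other 8 are open; 4 of the positive values turned negative when libraries were scaled by totals alone.

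The promoters of NPC1 and CYP27A1, the genes that rose, are shown with that of their uncalled partner NPC2 and that of OSBPL8, which holds overlapping motif matches. Each window runs from 250 bases before to 50 bases after a RefSeq start (GRCh38.p14), 5′ to 3′ on the gene's strand, at chr18:23586457-23586756 (minus) for NPC1, chr2:218781897-218782196 (plus) for CYP27A1, chr14:74493256-74493555 (minus) for NPC2 and chr12:76559722-76560021 (minus) for OSBPL8. Capitals mark matches to the motifs searched.
NPC1: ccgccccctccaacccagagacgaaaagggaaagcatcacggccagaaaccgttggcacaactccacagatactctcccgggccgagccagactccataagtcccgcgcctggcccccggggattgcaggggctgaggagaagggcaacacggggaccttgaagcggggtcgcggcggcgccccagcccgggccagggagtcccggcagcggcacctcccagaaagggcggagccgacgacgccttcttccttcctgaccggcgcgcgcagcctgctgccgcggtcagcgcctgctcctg
CYP27A1: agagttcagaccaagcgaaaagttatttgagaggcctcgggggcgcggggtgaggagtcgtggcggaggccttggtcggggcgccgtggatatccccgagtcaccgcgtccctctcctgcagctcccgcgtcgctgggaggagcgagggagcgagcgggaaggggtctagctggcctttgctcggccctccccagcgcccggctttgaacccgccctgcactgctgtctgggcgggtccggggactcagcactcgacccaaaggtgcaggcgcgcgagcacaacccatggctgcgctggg
NPC2: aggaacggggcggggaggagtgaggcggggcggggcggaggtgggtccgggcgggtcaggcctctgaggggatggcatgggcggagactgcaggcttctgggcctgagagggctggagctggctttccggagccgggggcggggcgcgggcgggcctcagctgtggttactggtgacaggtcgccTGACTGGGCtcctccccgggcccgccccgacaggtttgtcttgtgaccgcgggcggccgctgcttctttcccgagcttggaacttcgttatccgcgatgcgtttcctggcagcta
OSBPL8: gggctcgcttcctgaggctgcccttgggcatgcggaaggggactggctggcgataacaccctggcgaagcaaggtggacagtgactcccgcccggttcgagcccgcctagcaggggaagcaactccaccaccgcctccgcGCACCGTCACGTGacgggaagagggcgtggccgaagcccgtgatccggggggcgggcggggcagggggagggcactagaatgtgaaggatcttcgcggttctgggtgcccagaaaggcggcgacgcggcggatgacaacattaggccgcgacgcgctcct
Windows were found for 9 members, all but GRAMD1B, and there were 14 windows because some genes have several starts. Both strands were searched for the classical sterol response element, the site of SREBP factors, and its looser form TCACNCCAC, which lies within it. They were also searched for CACGTG (the E-box core), TGACNNNGC (the antioxidant response element core, bound by NRF2) and the direct repeat of AGGTCA with 4 bases between its copies that LXR binds. Neither sterol element nor the LXR repeat matched in a member window; they occur in 0.0456%, 1.13% and 0.0199% of all 35116 windows. The windows of NPC1 and CYP27A1 held none of the motifs. The E-box core, in 7.26% of all windows, matched once in OSBPL8, with its first base at -103 relative to the start, and once in OSBPL1A, at -89. The antioxidant core, in 13.3% of all windows, matched in 4 of the 14 member windows. These belong to NPC2, OSBPL8 and GRAMD1A, none of which was called. The other window of NPC2 and that of OSBPL8, not shown, held none of the motifs. In OSBPL8 the antioxidant match overlaps the E-box by 2 bases. A match is a string of letters, not a bound site, and no match speaks only of these windows.

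STARD3, which sits in the late endosome membrane, tethers it to the ER and carries cholesterol with its START domain, was slightly higher without passing the test. It had 48.6, 52.2, 47.0 and 45.9 CPM in AF and 44.8, 45.5, 45.3 and 40.6 CPM in DMSO. The groups did not overlap, but the lowest AF and the highest DMSO libraries lay side by side. Over all genes tested, 9.86% had all 4 AF values above all 4 DMSO values and 9.68% had all below, 19.5% in either direction; of the 10 members 3 were above and 0 below. The log2 fold change of STARD3 was 0.14 ± 0.07 (adjusted p = 0.185, edgeR) and -0.01 with library totals alone. STARD3 lies on chromosome 17, at 39637065 to 39663484 on the plus strand.

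The 4 oxysterol-binding proteins did not pass the test. OSBP, the founding member, which exchanges sterol for the lipid PI4P between the ER and the Golgi, had 112, 106, 108.5 and 116 CPM in AF and 102, 98.8, 105 and 109 CPM in DMSO. The ranges overlapped, and the log2 fold change was 0.09 ± 0.05 (adjusted p = 0.255; -0.06 with library totals alone). OSBPL1A encodes ORP1, whose long form sits on late endosomes and reads their cholesterol content. It had 66.9, 63.8, 63.2 and 72.6 CPM in AF and 68.9, 69.3, 68.3 and 70.3 CPM in DMSO. AF replicate 4 was above all DMSO libraries and the other AF libraries were below them, for a log2 fold change of -0.06 ± 0.06 (adjusted p = 0.549) that ran from -0.10 without AF replicate 4 to -0.03 without AF replicate 3. Gene counts do not separate the long from the short form of ORP1. OSBP lies on chromosome 11, at 59574398 to 59616144, and OSBPL1A on chromosome 18, at 24162044 to 24397880, both on the minus strand.

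OSBPL8 (ORP8) is anchored in the ER and exchanges phosphatidylserine for PI4P at contacts with the plasma membrane. It had 178, 165, 193 and 188 CPM in AF and 175, 150, 158 and 186 CPM in DMSO, and the ranges overlapped. The log2 fold change of OSBPL8 was 0.11 ± 0.07 (adjusted p = 0.301), 0.07 without DMSO replicate 2 and -0.04 with library totals alone. OSBPL11 (ORP11), found at the Golgi and late endosomes, had 65.3, 61.0, 63.4 and 77.1 CPM in AF and 61.5, 59.7, 58.9 and 59.1 CPM in DMSO. AF replicate 4 was highest by far, AF replicates 1 and 3 were just above the DMSO range and AF replicate 2 was within it. Its log2 fold change was 0.16 ± 0.07 (adjusted p = 0.139), and 0.08 without AF replicate 4. OSBPL8 lies on chromosome 12, at 76351797 to 76559809, and OSBPL11 on chromosome 3, at 125528858 to 125595090, both on the minus strand.

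Within libraries, the ratio of OSBPL1A to OSBP was lower in AF although neither gene passed alone. The log2 ratio of OSBPL1A to OSBP was -0.73 ± 0.04 in AF and -0.58 ± 0.05 in DMSO, a difference of -0.15 (exact permutation p = 0.0286, adjusted p = 0.0476), and every AF ratio was below every DMSO ratio. This p is the smallest the test allows. It passed after adjustment because NPC1/NPC2 and CYP27A1/NPC1 reached the same p. For OSBPL8 to OSBPL11 the log2 ratio was 1.44 ± 0.13 in AF and 1.48 ± 0.14 in DMSO, a difference of -0.04 (exact permutation p = 0.686, adjusted p = 0.686), whose sign turned without AF replicate 4 (0.02) or DMSO replicate 4 (0.02).

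**Figure D3:**
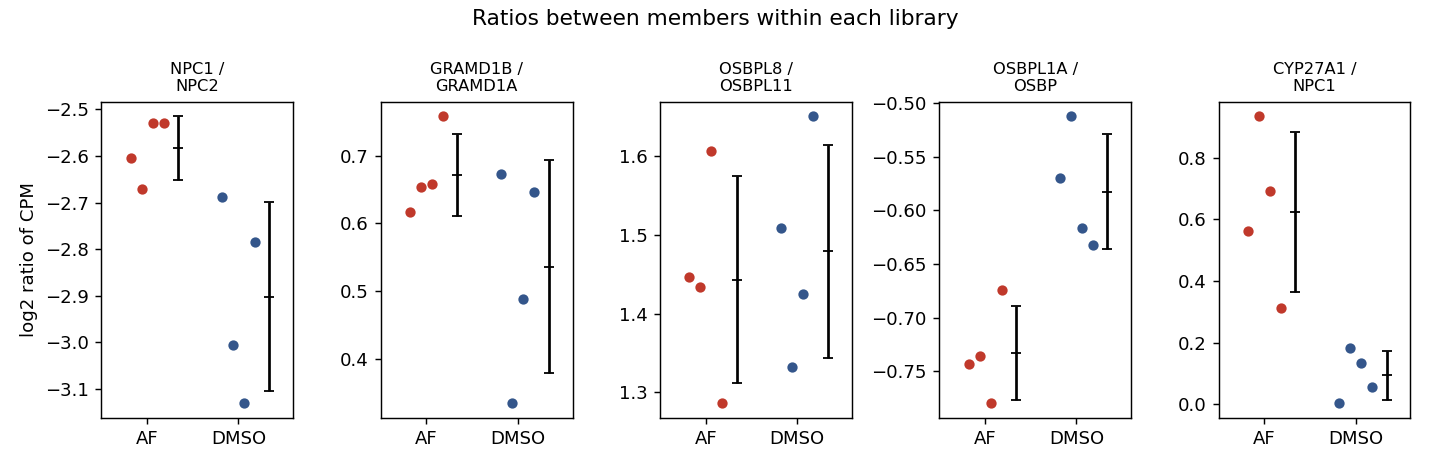
log2 ratio of CPM between 2 genes of the same library (vertical axis, a separate scale in each panel) in 4 AF and 4 DMSO libraries, with the mean ± SD in black. NPC1/NPC2 and CYP27A1/NPC1 are higher and OSBPL1A/OSBP is lower in AF with no overlap, while GRAMD1B/GRAMD1A and OSBPL8/OSBPL11 overlap.

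GRAMD1A and GRAMD1B encode ER-anchored Aster proteins that bring accessible cholesterol from the plasma membrane to the ER; GRAMD1B is also known as an LXR target in mouse macrophages. GRAMD1A had 40.0, 42.1, 39.0 and 32.8 CPM in AF and 36.7, 39.1, 37.5 and 36.5 CPM in DMSO. AF replicate 4 was below, and AF replicates 1 and 2 above, all DMSO libraries, and the log2 fold change was 0.04 ± 0.08 (adjusted p = 0.806). The sign turned with library totals alone (-0.12) and, on leaving out AF replicate 2, to -0.01. GRAMD1B had 61.3, 66.3, 61.6 and 55.4 CPM in AF and 58.6, 49.3, 52.7 and 57.1 CPM in DMSO. AF replicates 1 to 3 were above the DMSO range and AF replicate 4 was inside it. The log2 fold change of GRAMD1B was 0.17 ± 0.07 (adjusted p = 0.123), and without AF replicate 4 it was 0.21 and passed (adjusted p = 0.0398). The log2 ratio of GRAMD1B to GRAMD1A was 0.67 ± 0.06 in AF and 0.54 ± 0.16 in DMSO, a difference of 0.14 that did not pass (exact permutation p = 0.229, adjusted p = 0.286) and was 0.07 without DMSO replicate 2. GRAMD1A lies on chromosome 19, at 34994784 to 35026471, and GRAMD1B on chromosome 11, at 123358428 to 123627774, both on the plus strand.

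The AF libraries did not rank alike across the 10 genes. AF replicate 2 had the highest AF value of 5 genes (NPC2, CYP27A1, STARD3, GRAMD1A and GRAMD1B) and AF replicate 4 the lowest of the same 5. OSBP and OSBPL11 ran the other way, lowest in AF replicate 2 and highest in AF replicate 4. AF replicate 1, whose makeup stood apart, held 0 of the highest and 0 of the lowest AF values. The coefficient of variation was wider in AF for 5 members and wider in DMSO for 5.

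The order of levels was set by length-corrected values, CPM per kilobase (kb) of all annotated exons. NPC2 was highest, at 187 ± 2.01 CPM per kb in AF and 189 ± 16.7 in DMSO. Its DMSO mean was above that of 98.6% of the 15894 tested genes with a known exon length. CYP27A1 followed with 44.7 ± 6.89 CPM per kb in AF and 24.7 ± 0.535 in DMSO, clear of its neighbours in both groups. OSBP (20.2 ± 0.756 in AF, 18.9 ± 0.776 in DMSO) and OSBPL8 (19.7 ± 1.36 in AF, 18.2 ± 1.75 in DMSO) overlapped each other in both groups. OSBPL11 came next with 15.9 ± 1.71 CPM per kb in AF and 14.3 ± 0.281 in DMSO; it overlapped OSBPL8 in AF but not in DMSO.

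STARD3 (9.39 ± 0.531 CPM per kb in AF, 8.54 ± 0.443 in DMSO) lay above OSBPL1A (8.30 ± 0.534 in AF, 8.62 ± 0.102 in DMSO) in AF by mean and below it in DMSO, with overlapping ranges in both groups. NPC1 stood at 8.47 ± 0.313 CPM per kb in AF, overlapping OSBPL1A, and at 6.85 ± 0.364 in DMSO, overlapping GRAMD1A (6.47 ± 0.676 in AF, 6.30 ± 0.2 in DMSO). GRAMD1B was lowest with 4.11 ± 0.298 CPM per kb in AF and 3.66 ± 0.286 in DMSO. On this scale NPC2 was 22 times NPC1 in AF and 27.5 times in DMSO, and CYP27A1 was 5.27 times NPC1 in AF and 3.61 times in DMSO. Exons that these cells do not use lengthen the divisor, most for GRAMD1B, whose annotated exons add up to 14.863 kb.

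**Figure D4:**
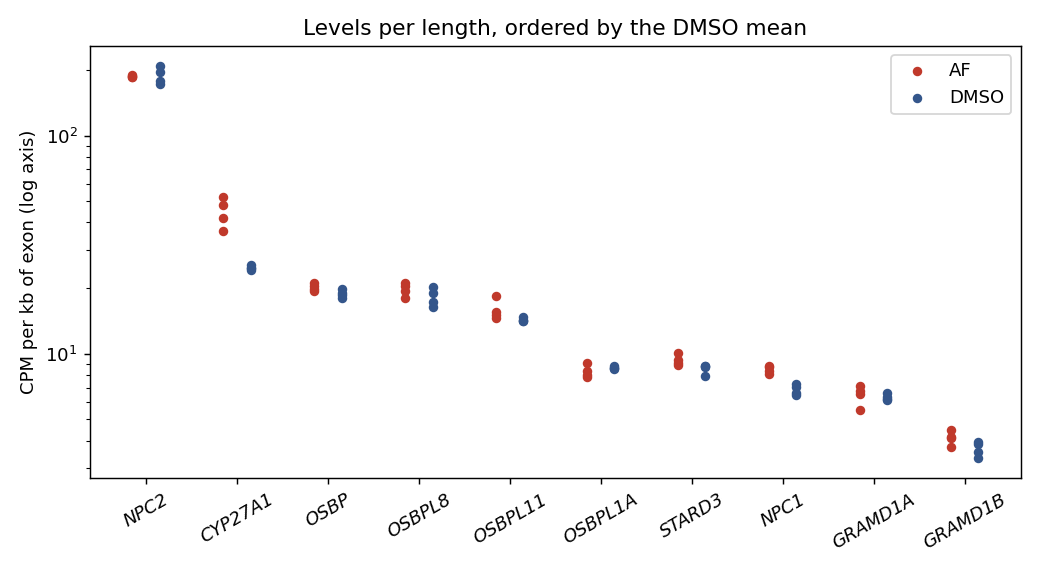
CPM per kb of annotated exon (vertical log axis) of the 10 genes in each library, AF points left of DMSO points, ordered by the DMSO mean. NPC2 stands far above the rest, CYP27A1 is second with its AF points apart from its DMSO points, and GRAMD1B is lowest.

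Other genes of these families and their partners were read from 6 lists with 81 entries, of which 70 were tested: 8 were called higher and 9 lower, against 7.62% and 7.81% of all genes. With library totals alone 0 were called higher and 1 lower, and with the replicate number as a block 14 and 10. Of 7 other oxysterol-binding proteins tested, 0 were called in either direction by edgeR (2 higher and 0 lower at an unadjusted p under 0.05; 1 higher and 0 lower by DESeq2 and by limma voom), with a median log2 fold change of 0.04. Their smallest p was that of OSBPL7, at 18.8 ± 1.77 CPM in AF and 15.4 ± 1.61 in DMSO (log2 fold change 0.29 ± 0.10, adjusted p = 0.0692, edgeR; 0.0233 without AF replicate 4).

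Of 15 other START and GRAMD genes, 2 were higher and 4 lower (median 0.05). The soluble sterol carrier STARD4 rose to 61.9 ± 7.48 CPM in AF, against 43.2 ± 2.61 in DMSO (log2 fold change 0.52 ± 0.08, adjusted p = 0.000663, edgeR). STARD13, which carries a START domain, rose to 92.0 ± 3.24 CPM in AF, against 77.5 ± 2.03 in DMSO. ACOT11, an acyl-CoA thioesterase with a START domain, fell to 7.45 ± 0.927 CPM in AF, against 12.9 ± 1.58 in DMSO (log2 fold change -0.81 ± 0.11). GRAMD4 had a log2 fold change of -0.24 ± 0.05 and the kinesin-like gene STARD9 one of -0.37 ± 0.09, which no longer passed without DMSO replicate 2 (adjusted p = 0.052) or DMSO replicate 3 (0.0511).

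Among 15 partners at membrane contact sites, 1 was higher and 3 lower (median -0.07). The tethers VAPA and VAPB, on which OSBP and STARD3 dock, were not called. VPS13C, a lipid transfer protein between the ER and late endosomes, fell to 96.6 ± 7.41 CPM in AF, against 123 ± 2.14 in DMSO (log2 fold change -0.35 ± 0.06). PI4KA, the kinase that makes PI4P at the plasma membrane, had -0.35 ± 0.06, and ESYT1, an ER to plasma membrane tether, had -0.20 ± 0.05. ANXA1, an annexin found at ER to endosome contacts, rose with 0.27 ± 0.06. The ESYT1 call was lost without AF replicate 2 (adjusted p = 0.0511), AF replicate 3 (0.0808), DMSO replicate 1 (0.061), DMSO replicate 2 (0.0583) or DMSO replicate 3 (0.0694). It was also lost in edgeR with no filter on low counts (adjusted p = 0.0531).

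Among 14 lysosomal partners, 2 were higher and 1 lower (median 0.13). The lysosomal membrane glycoprotein gene LAMP1 rose to 365 CPM on average in AF, against 294 in DMSO (log2 fold change 0.31 ± 0.06, adjusted p = 0.00483, edgeR), a size close to that of NPC1. LAMTOR1, a subunit of the Ragulator complex that anchors mTORC1 to lysosomes, fell with -0.26 ± 0.05. LIPA, the acid lipase that frees cholesterol from AcLDL, had 521 CPM in AF and 475 CPM in DMSO on average and did not pass (adjusted p = 0.375); it was named after its values were seen, as were VAPA, VAPB and the redox partners below.

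Around CYP27A1 no other gene of oxysterol synthesis was called higher: of 9 tested, edgeR called 0 higher and 1 lower (median -0.01). At an unadjusted p under 0.05 there were 1 higher and 2 lower. DESeq2 and limma voom each called 0 higher and 1 lower. FDX1 and FDXR, which pass electrons to mitochondrial hydroxylases such as CYP27A1, had log2 fold changes of -0.24 ± 0.11 and -0.15 ± 0.12 and did not pass (adjusted p = 0.140 and 0.448). CYP7B1, which further hydroxylates oxysterols, fell to 12.7 ± 0.921 CPM in AF, against 16.0 ± 1.82 in DMSO (log2 fold change -0.32 ± 0.10, adjusted p = 0.0393, edgeR). That call was lost without AF replicate 1 (0.0893), AF replicate 2 (0.0544), AF replicate 3 (0.0628), DMSO replicate 1 (0.0864) or DMSO replicate 4 (0.0763). CH25H, which makes another oxysterol, had at most 9 counts in a library and was not tested.

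The list of oxysterol sensors had 10 tested genes and also held partners of the sensors and genes of the SREBP pathway. Of these 10, 3 were higher and 0 lower in edgeR (5 and 0 at an unadjusted p under 0.05; 2 and 0 by DESeq2, 3 and 0 by limma voom; median 0.16). INSIG1, the ER protein that holds SREBP back when sterol is plentiful, rose to 114 ± 9.57 CPM in AF, against 89.2 ± 8.0 in DMSO (log2 fold change 0.35 ± 0.07). GPR183, a receptor for dihydroxylated oxysterols, had 0.58 ± 0.15, and NR1H3, which encodes LXR alpha, 0.31 ± 0.10; the groups overlapped for each. GPR183 did not pass by DESeq2 (adjusted p = 0.0544). In edgeR it no longer passed on leaving out DMSO replicate 2 (adjusted p = 0.0654) or 3 (0.0633). The NR1H3 call was lost without AF replicate 2 (0.136) or 3 (0.157) or any 1 of DMSO replicates 1 to 4 (0.0954, 0.0822, 0.0874 and 0.101). It was also lost in edgeR with upper-quartile scaling (adjusted p = 0.062) and with a filter at a mean of 1 CPM (0.0508).

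**Figure D5:**
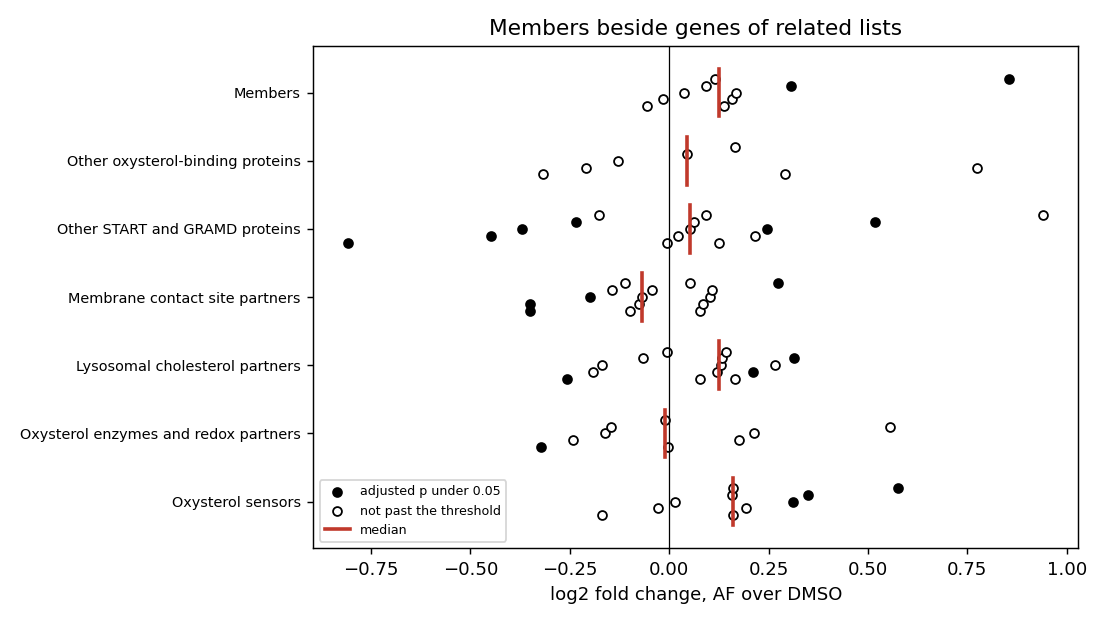
log2 fold change, AF over DMSO (horizontal axis), of the 10 members and of the tested genes of 6 related lists; filled points passed an adjusted p of 0.05 and red bars mark medians. Member values run from -0.06 to 0.85, and calls in both directions occur in the START and GRAMD, contact site and lysosomal lists; with library totals alone 1 list gene stayed called.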

How the data were processed

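The authors deposited whole-number gene counts, not normalised, for 8 libraries. Per the submitters' processing notes, GRCh38 was the build and the tools were STAR 2.6.1d, Subread 1.6.3 and featureCounts. Which annotation, strand setting and rule for multi-mapped reads applied is not given in the sources used here. Libraries were stranded poly-A preparations from 250 ng of total RNA, per the labels' protocols. Columns were matched to samples by title. Tests used edgeR 4.0.16 under R 4.3.3 on the deposited counts (filterByExpr, TMM, glmQLFit, glmQLFTest, two-sided, Benjamini-Hochberg over 17535 genes, threshold 0.05), AF against DMSO with no block and 6 residual degrees of freedom. A standard error is the log2 fold change divided by the square root of F. Ratios used log2 CPM with a prior count of 2 and an exact permutation test. No molecular identifiers are described, so counting errors cover counting only. Exon lengths, overlaps and positions are from GENCODE 29 and promoters from RefSeq, both on GRCh38; no protein table was used here. The members and lists were chosen with earlier results of these data known. All members were named; from each list up to 3 called genes per direction with the smallest p, or else the smallest p. A gene that this rule names is not reported here. Alternatives were DESeq2 1.42.0, limma 3.58.1 voom with a correlation within library-name stems (estimated at -0.0884), other scalings, filters and blocks, protein-coding genes alone, and leaving out each library. The test was tried on simulated counts.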

Additional observations from a re-analysis of the deposited data

Results flagged for a closer look

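Within groups of 4 libraries, a value was looked at again where its gap to the nearest other library exceeded Dixon's 95% limit, as a share of the group's range; of 64 such groups, chance would give about 3.2 (1 in 20) and 2 were found. STARD3 in DMSO replicate 4 had 40.6 CPM, against 44.8 to 45.5 CPM in the other DMSO libraries (gap 0.857 of the range). VPS13C in AF replicate 2 had 85.5 CPM, against 99.1 to 101 CPM in the other AF libraries (gap 0.857).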

How the results depend on the processing

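Each of the 10 genes was refitted under 18 alternatives, and CYP27A1 was called in all and NPC1 in 17. With library totals alone, 1 member was called higher, 0 list genes higher and 1 lower, and 183 genes in all higher and 700 lower; NPC1 had 0.16 (adjusted p = 0.714), STARD3 -0.0131, OSBP -0.0587, OSBPL8 -0.035 and GRAMD1A -0.117. The replicate block gave 2102 genes higher and 2086 lower and 14 list genes higher, and no member's call changed. The labels share replicate numbers without saying what they mark; deviations of same-numbered libraries correlated by 0.0937, 0.129, 0.0288 and 0.192, and AF replicate 3 correlated best with another number (0.0416). For the 5 ratios the mean within-number difference equals the difference of group means by construction, so that mean is no further check of them. The SD of the within-number differences was 0.216 for NPC1/NPC2, around a mean of 0.319. For OSBPL1A/OSBP it was 0.0769, around a mean of -0.151. No paired test of the ratios was run. Leaving out 1 library gave 2 to 3 members higher, 768 to 1462 genes higher and 833 to 1502 lower, and log2 fold changes of -0.057 to 0.0364 for NPC2, -0.00853 to 0.108 for GRAMD1A, 0.123 to 0.213 for GRAMD1B and -0.0903 to 0.0216 for the difference in OSBPL8/OSBPL11. They ran from 0.0803 to 0.199 for OSBPL11, and from 0.0687 to 0.182 for the difference in GRAMD1B/GRAMD1A. The cause of these shifts was not tested. The changes of STARD3 and OSBPL11 did not pass in the main fit or in any of the 18 alternatives.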
